A study of Mus musculus with 4 samples.

Results

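The Iroquois genes Irx1, Irx2, Irx3, Irx5 and Irx6 were described in cells of the neonatal mouse tibia. They were taken by symbol from the rows of the gene count matrix, and they were 5 of 31053 genes. Irx4, the remaining gene of the family, also had a row and is given beside them. The data came from 1 droplet library of a male mouse at postnatal day 6, made from 2 tibiae, growth plates included and secondary ossification centres left out, and 4 sequencing entries held that 1 library. The study used this library to follow hypertrophic chondrocytes (HCs) into the osteoblast lineage. The mouse was Col10a1Cre;Rosa26-Tdtomato;Irx3 +/Δ;Irx5 +/-, a genotype labelled as the heterozygous control, and no mouse with both genes at full dose was measured. By the study's design, Col10a1-driven Cre, which acts in HCs, deleted 1 Irx3 allele in HCs and their descendants and switched on the tdTomato reporter in those cells, whereas 1 Irx5 allele was missing in every cell. Reporter and Irx3 dose therefore cannot be told apart. Neither the labels nor the methods give the part of the gene that each allele lacks, and a 3′ tag outside that part does not report the deletion.

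Iroquois genes encode homeodomain transcription factors of the TALE class, which carry an extended loop in the DNA-binding domain. Vertebrates keep them in conserved gene clusters, and neighbours within a cluster often share expression domains in the embryo. Irx3 and Irx5 act together in limb bud patterning, and the region of Fto next to Irx3 is known for enhancers that reach Irx3 and Irx5.

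In the mouse genome (GRCm38, GENCODE M21), Irx3 lay on the minus strand at chr8:91798525-91802067, Irx5 on the plus strand at chr8:92357625-92376286 and Irx6 on the plus strand at chr8:92674288-92680956. The gap between Irx3 and Irx5 was 555.6 kb, and that between Irx5 and Irx6 was 298.0 kb. Irx1 (chr13:71957921-71963723, minus strand), Irx2 (chr13:72628820-72634198, plus strand) and Irx4 (chr13:73260479-73269608, plus strand) formed the other cluster. The antisense gene Irx3os (chr8:91800415-91807539, plus strand) shared 1653 bases with the Irx3 gene body. The stretch lies at the start of both genes, which are on opposite strands, whereas a 3′ library takes its reads near transcript ends. The labels and methods do not say whether strand was used in counting. The part of Irx3os reads in the Irx3 counts was not tested.

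Members this alike could share reads, so the stretch of 60 coding bases that was most alike across all family transcripts is shown. It lies in the homeobox, in 1 exon of each transcript. Capitals mark the bases that differ from Irx3.
Irx3 (exon 2, chr8:91800511-91800570, minus strand): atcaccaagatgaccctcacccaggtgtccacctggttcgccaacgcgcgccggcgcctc
Irx6 (exon 4, chr8:92677350-92677409, plus strand): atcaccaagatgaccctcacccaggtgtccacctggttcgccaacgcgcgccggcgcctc
Irx5 (exon 2, chr8:92359741-92359800, plus strand): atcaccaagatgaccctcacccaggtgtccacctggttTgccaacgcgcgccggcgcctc
Irx1 (exon 2, chr13:71960007-71960066, minus strand): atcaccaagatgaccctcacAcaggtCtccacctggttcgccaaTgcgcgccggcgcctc
Irx2 (exon 2, chr13:72630778-72630837, plus strand): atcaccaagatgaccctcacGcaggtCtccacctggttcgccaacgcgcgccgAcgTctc
Irx4 (exon 5, chr13:73267637-73267696, plus strand): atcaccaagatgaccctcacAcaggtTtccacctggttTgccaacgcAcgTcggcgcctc
Irx6 was identical to Irx3 over this stretch, Irx5 differed at 1 base, and Irx1, Irx2 and Irx4 differed at 3, 4 and 5 bases. Over whole transcripts the longest run of identical bases shared by any pair of the family was 88 bases, between Irx3 and Irx6. In the last 500 bases of the transcripts, where a 3′ library takes its reads, no pair shared a run longer than 17 bases.

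Of 14181 cell barcodes, 8256 cells were kept, with 2623 to 85279 UMIs per cell and a median of 13957.5. They were clustered without the Iroquois genes, the Mmp genes and Pth1r, and 27 of the 32 clusters were given 1 of 14 class names from marker genes. The rule that turned markers into names was set after the clusters had been seen, and the names may differ from those of the study. The classes held their defining markers: Col10a1 stood at 11250 CPM in HC-like cells and 892.5 CPM in pre-HC-like cells, Ifitm5 at 728.7 CPM in the mature osteoblast-like class, Cxcl12 at 8205 CPM in marrow stromal-like cells and Cdh5 at 1241 CPM in endothelial-like cells. Another 709 cells in 5 clusters stayed unnamed, and Scrublet marked 189 of them as doublets. CPM are UMIs of the gene per 1000000 UMIs of the class, given with an exact Poisson 95% interval, and a share of cells with an exact Clopper-Pearson 95% interval. With 1 library there is no replicate and no test was made. All intervals cover counting error only.

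Irx3 and Irx5 carried nearly all Iroquois UMIs. The cells kept held 2721 Irx3 UMIs in 1383 cells and 1928 Irx5 UMIs in 904 cells. Irx2 had 69 UMIs in 67 cells, Irx6 had 10 UMIs in 8 cells, Irx4 had 7 UMIs in 7 cells, and Irx1 had 2 UMIs in 2 cells. The highest count in any cell was 20 UMIs for Irx3, in an endothelial-like cell, and 22 UMIs for Irx5, in a mature osteoblast-like cell.

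Irx3 was highest in marrow stromal-like and immature osteoblast-like cells. Its level was 105 CPM (93.1 to 118, 248 cells) in marrow stromal-like cells and 96.4 CPM (88.5 to 104.8, 464 cells) in immature osteoblast-like cells, and these intervals overlapped. Endothelial-like cells followed at 68.9 CPM (63.8 to 74.2, 823 cells) and mature osteoblast-like cells at 63.95 CPM (58.8 to 69.4, 428 cells), again with overlapping intervals. The step between these pairs of classes was larger than counting error. The endothelial-like level moved with the processing, from 14.2 to 75.3 CPM over 9 alternative settings. Among them, the limit of 5% mitochondrial UMIs left 39 endothelial-like cells.
Pericyte-like cells had 32.3 CPM (22.4 to 45.1, 101 cells) and HC-like cells 21.6 CPM (17.1 to 27.1, 106 cells), with overlapping intervals. Pre-HC-like cells had 14.4 CPM (12.3 to 16.8, 377 cells), fibroblast-like cells 10.7 CPM (7.66 to 14.6, 314 cells), and resting or periarticular chondrocyte-like cells 6.71 CPM (3.35 to 12, 145 cells). From pre-HC-like down to general chondrocyte-like cells, each interval overlapped that of the next class in the order, but pre-HC-like cells overlapped neither HC-like nor resting or periarticular chondrocyte-like cells. General chondrocyte-like cells stood at 6.43 CPM (5.46 to 7.52, 1165 cells) and cycling chondrocyte-like cells at 1.995 CPM (0.802 to 4.11, 117 cells).
Blood cells, taken as the background left by free RNA, were lowest. Irx3 was at 1.26 CPM (0.921 to 1.69) in 2712 leukocyte-like cells and at 0.366 CPM (0.0755 to 1.07) in 534 erythroid-like cells. The interval of cycling chondrocyte-like cells overlapped both, so Irx3 in that class could not be told from free RNA at this depth.

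Irx5 had another order, led by HC-like and mature osteoblast-like cells. HC-like cells, the terminal chondrocytes of the growth plate, held 78.4 CPM (69.5 to 88.2), and mature osteoblast-like cells held 76.4 CPM (70.8 to 82.3). These intervals overlapped. Marrow stromal-like cells at 32.4 CPM (26.0 to 39.9), immature osteoblast-like cells at 29.4 CPM (25.1 to 34.2) and pre-HC-like cells at 27.0 CPM (24.1 to 30.2) formed the next group, in which neighbours overlapped.
All other classes were lower. Endothelial-like cells had 9.72 CPM (7.89 to 11.9), general chondrocyte-like cells 6.92 CPM (5.92 to 8.05), fibroblast-like cells 5.095 CPM (3.07 to 7.96), cycling chondrocyte-like cells 3.42 CPM (1.77 to 5.97) and pericyte-like cells 2.85 CPM (0.587 to 8.32). Resting or periarticular chondrocyte-like cells had 1.22 CPM (0.148 to 4.41), leukocyte-like cells 0.449 CPM (0.257 to 0.729) and erythroid-like cells 0.244 CPM (0.0296 to 0.882). The resting and pericyte-like classes could therefore not be told from free RNA at this depth.

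**Figure D1:**
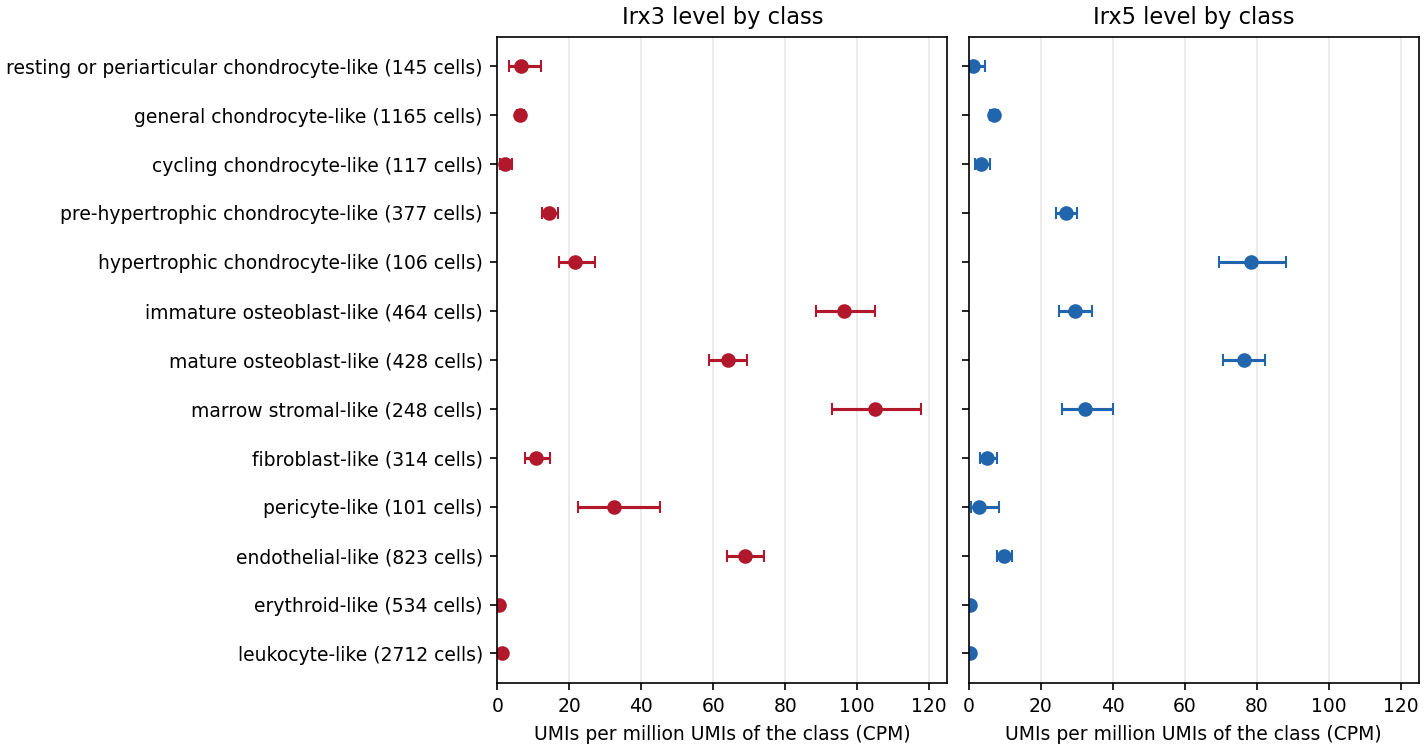
Irx3 (left) and Irx5 (right) levels in CPM by class, with points for the level and bars for the exact Poisson 95% interval, and the number of cells beside each class name. Irx3 peaks at 105 CPM in marrow stromal-like cells and stays high in endothelial-like cells, whereas Irx5 peaks at 78.4 CPM in HC-like cells and is low in endothelial-like cells.

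The share of cells with a UMI was led by the same classes. Cells were thinned to 5000 UMIs, which left out 360 cells, 89 of them endothelial-like and 217 leukocyte-like. An Irx3 UMI was then present in 41.1% of marrow stromal-like cells (34.8 to 47.6), 34.1% of immature osteoblast-like cells (29.7 to 38.6), 27.8% of mature osteoblast-like cells (23.6 to 32.3) and 23.8% of endothelial-like cells (20.8 to 27.1). In leukocyte-like cells, the background class, it was 0.481% (0.249 to 0.839). An Irx5 UMI was present in 33.0% of HC-like cells (24.2 to 42.8), 24.3% of mature osteoblast-like cells (20.3 to 28.7), 13.3% of pre-HC-like cells (10.0 to 17.2) and 0.16% of leukocyte-like cells (0.0437 to 0.41).
Without thinning the shares were higher: 80.2% of HC-like cells, which had a median of 33060 UMIs, held an Irx5 UMI, and so did 52.6% of mature osteoblast-like cells at a median of 18620 UMIs. In leukocyte-like cells, at a median of 11230 UMIs, the unthinned shares were 1.33% for Irx3 and 0.553% for Irx5.

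Irx2, Irx6, Irx1 and Irx4 were close to the limit of detection. Irx2 reached 3.80 CPM in pericyte-like cells (4 UMIs, 1.04 to 9.72) and 1.69 CPM in HC-like cells (6 UMIs, 0.619 to 3.67), and its largest number of UMIs, 24 of 69, was in general chondrocyte-like cells at 0.983 CPM (0.63 to 1.46). Its intervals overlapped among all chondrocyte-like, osteoblast-like and stromal classes in which it was seen. Within the general chondrocyte-like cells, 16 of the 24 Irx2 UMIs were in the cluster with Il17b, Gdf10 and Fgfr3 among its leading genes. Its level there was 1.45 CPM (0.826 to 2.35), which overlapped the other clusters of the class at 0.773 CPM (0.284 to 1.68) and 0.358 CPM (0.0434 to 1.29).
Of the 10 Irx6 UMIs, 6 were in mature osteoblast-like cells, 2 in HC-like cells, 1 in a pre-HC-like cell and 1 in a general chondrocyte-like cell. The 4 mature osteoblast-like, 2 HC-like and 1 pre-HC-like cells with Irx6 also held Irx5, its neighbour in the genome, and the general chondrocyte-like cell did not. Of all cells in those classes, 52.6%, 80.2% and 36.9% held Irx5, and 11.1% of general chondrocyte-like cells did. Irx4 had 4 of its 7 UMIs in pre-HC-like cells. The 2 Irx1 UMIs were in 1 fibroblast-like and 1 pericyte-like cell. In the 11 other named classes of over 100 cells, Irx1 was at 0, which allows up to 1.83 CPM in resting chondrocyte-like cells and 0.0841 CPM in leukocyte-like cells.

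Within the growth plate, Irx5 and Irx3 were higher towards hypertrophy. From general to pre-HC-like cells Irx5 went from 6.92 to 27.0 CPM, a log2 ratio of 1.82 (1.58 to 2.07) with 1 CPM added, and Irx3 from 6.43 to 14.4 CPM, a log2 ratio of 1.05 (0.77 to 1.33). Of the 3 members with at least 30 UMIs over this pair of classes, Irx3 and Irx5 were higher by at least 2-fold and Irx2 was not, beside 2.27% of 12380 genes that were higher by that much and 4.88% that were lower. Irx3 fell short of 2-fold with at least 2000 genes per cell (0.53) and with 5 CPM added (0.76), and Irx5 did with at least 2000 genes per cell (0.42) and when Scrublet-marked barcodes were removed before clustering (0.53), all as log2 ratios.
From pre-HC-like to HC-like cells Irx5 rose further to 78.4 CPM, a log2 ratio of 1.503 (1.28 to 1.73), and it passed 2-fold where 22.7% of genes were higher and 6.06% lower by that much. Irx3 had a log2 ratio of 0.56 (0.19 to 0.92), close to the median of 0.46 over all genes in this pair. The part of Irx3 dose in this Irx3 ratio was not tested. The size of both steps moved with the filters and the clustering, which set the border of the pre-HC-like class. Over the alternative filters and clusterings the first Irx5 ratio ran from 0.42 to 2.80 and the second from 0.82 to 2.24, with no change of sign.
Col10a1, the collagen X gene that marks hypertrophy, also split the pre-HC-like cells. The 182 pre-HC-like cells with a Col10a1 UMI held Irx5 at 42.1 CPM (37.1 to 47.7) and the 195 without at 11.4 CPM (8.85 to 14.6), and Irx3 at 19.1 CPM (15.8 to 23.0) against 9.53 CPM (7.18 to 12.4). Among HC-like cells, the 59 with a UMI of Mmp13, a collagenase of late HCs, held Irx5 at 91.2 CPM (77.9 to 106) and the 47 without at 64.6 CPM (53.1 to 77.8), with intervals that just missed each other. Median depth was 31730 and 29200 UMIs with and without Col10a1, and 31220 and 36760 with and without Mmp13. Col10a1 also stood at 23.7 CPM in leukocyte-like cells, so a single Col10a1 UMI can come from free RNA. The part of depth or of free RNA in these splits was not tested.

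The 3 clusters of general chondrocyte-like cells differed in Irx3. The cluster led by F3, Il11 and Krt16 held 16.0 CPM (89 UMIs), and Scrublet marked 36 of its 287 cells as doublets. The cluster led by Nfatc2, Ucma and Matn1 and the one with Il17b, Gdf10 and Fgfr3 among its leading genes held 3.35 and 3.79 CPM, with 0 and 2 marked cells. Without the marked cells and with the classes kept, general chondrocyte-like cells had 5.00 CPM of Irx3, and the log2 ratio of pre-HC-like over general cells became 1.35.

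From immature to mature osteoblast-like cells Irx5 and Irx3 went opposite ways. Irx5 rose from 29.4 to 76.4 CPM, a log2 ratio of 1.35 (1.11 to 1.59), and 4.83% of 11270 genes were higher by at least 2-fold in this pair and 18.1% lower. Irx3 went from 96.4 to 63.95 CPM, a log2 ratio of -0.58 (-0.75 to -0.42), near the median of -0.47 over all genes. Irx3 thus fell little more than the typical gene in this pair. Col1a1 alone stood at 63370 CPM in mature and 5667 CPM in immature osteoblast-like cells. The part of Col1a1 or of Irx3 dose in the Irx3 ratio was not tested.
Dmp1, a matrix protein gene of late osteoblasts and osteocytes, marked the mature cells with most Irx5. The 245 cells with a Dmp1 UMI held Irx5 at 97.0 CPM (88.9 to 105.7) and the 183 without at 44.9 CPM (38.2 to 52.4). Irx3 was at 59.1 CPM (52.8 to 65.9) and 71.4 CPM (62.9 to 80.8) in the same cells. Median depth was 19570 and 17370 UMIs, and the part of depth in this split was not tested.
In mature osteoblast-like cells the tenth of cells with the highest counts held 55.3% of their Irx5 UMIs and 43.4% of their Irx3 UMIs. That share for Irx5 was 68.3% in immature osteoblast-like, 56.8% in marrow stromal-like, 56.2% in pre-HC-like and 30.5% in HC-like cells, and it is higher where fewer cells hold a UMI. After thinning, the variance of Irx5 UMIs over cells was 2.70 times the mean in mature osteoblast-like cells and between 1.02 and 1.34 times in the other named classes for which it was computed.

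**Figure D2:**
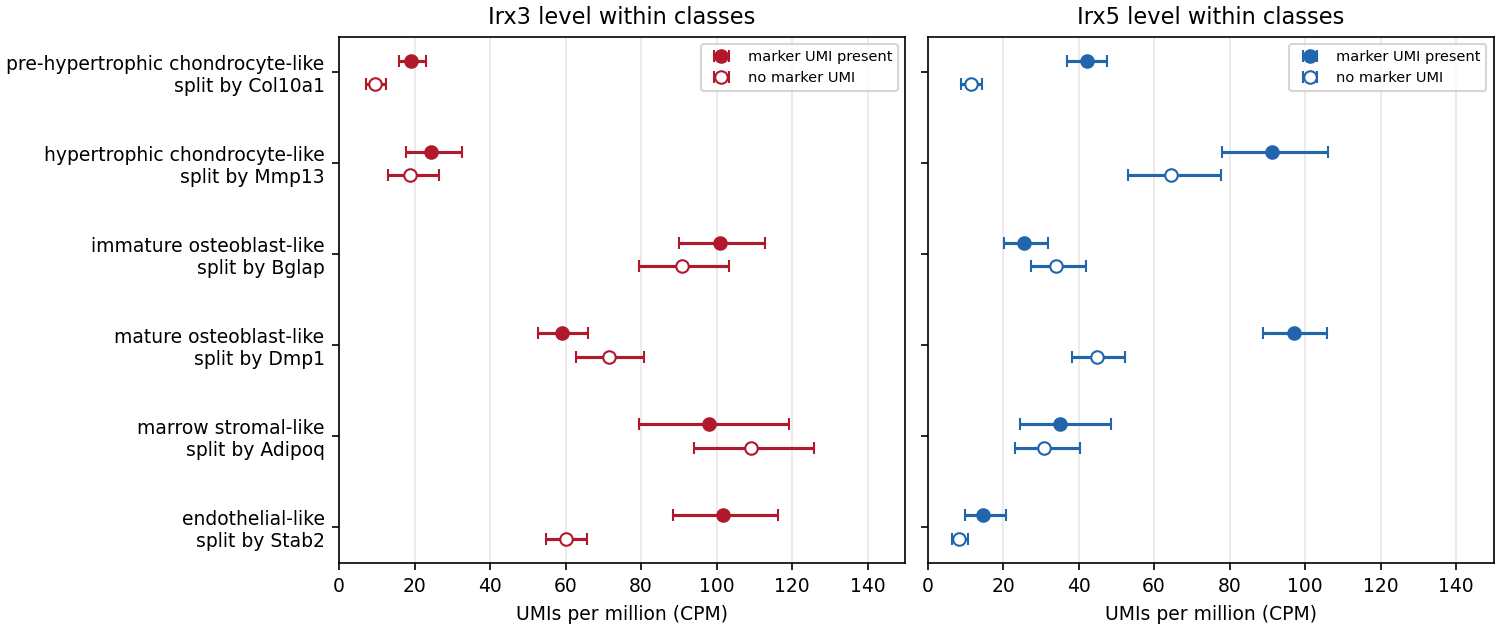
Irx3 (left) and Irx5 (right) levels in CPM within 6 classes, each split by whether a cell held a UMI of 1 marker gene (filled, present; open, absent); bars are exact Poisson 95% intervals. Irx5 separates by Col10a1 in pre-HC-like cells (42.1 against 11.4 CPM) and by Dmp1 in mature osteoblast-like cells (97.0 against 44.9 CPM), and Irx3 separates by Stab2 in endothelial-like cells (102 against 60.1 CPM).

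Osteoblast-like cells as a whole held more of both genes than chondrocyte-like cells. Pooled over classes, Irx3 was at 76.6 CPM in 892 osteoblast-like and 9.39 CPM in 1910 chondrocyte-like cells, a log2 ratio of 2.90 (2.75 to 3.05), and Irx5 was at 58.1 and 17.4 CPM, a log2 ratio of 1.69 (1.55 to 1.82). Both passed 2-fold, beside 14.3% of 13839 genes that were higher and 9.85% that were lower, and Irx2 did not. HC-like and mature osteoblast-like cells differed in Irx5 by less than counting error, with a log2 ratio of 0.04 (-0.16 to 0.24), while HC-like cells held less Irx3, with a log2 ratio of -1.52 (-1.85 to -1.19). In that pair, 21.7% of genes were higher and 8.66% lower by at least 2-fold. The part of Irx3 dose in the Irx3 ratio of HC-like over mature osteoblast-like cells was not tested.
Marrow stromal-like cells, which express Cxcl12 and Adipoq, differed from the immature osteoblast-like cells by less than counting error in both genes. The log2 ratio was 0.12 (-0.08 to 0.33) for Irx3 and 0.14 (-0.22 to 0.50) for Irx5, so 0 of 2 members passed 2-fold, beside 4.82% of genes higher and 2.5% lower. Within the stromal class, cells with and without an Adipoq UMI had overlapping intervals for both genes.
Fibroblast-like cells, marked by Aspn and Tnmd, were far lower. Their log2 ratio to immature osteoblast-like cells was -3.05 (-3.48 to -2.63) for Irx3 and -2.32 (-2.90 to -1.74) for Irx5, and both were lower by at least 2-fold, beside 5.72% of 11167 genes that were lower and 9.58% that were higher. The class joined a cluster led by Aspn, with Irx5 at 8.75 CPM (5.00 to 14.2), and one with Tnmd, at 1.58 CPM (0.325 to 4.61). Irx3 was at 15.3 CPM (10.2 to 22.1) and 6.31 CPM (3.26 to 11.0), with overlapping intervals. Erythroid markers summed to between 530 and 90320 CPM over the clusters, and their part in these levels was not tested.

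Endothelial-like cells held Irx3 with little Irx5. Against pooled osteoblast-like cells, the log2 ratio was -0.15 (-0.29 to -0.02) for Irx3 and -2.46 (-2.74 to -2.19) for Irx5, so that 1 of 2 members was lower by at least 2-fold, beside 12.3% of genes lower and 20.6% higher. Most Irx3 UMIs were in the large cluster led by Fabp4, Emcn and Plvap, with 677 Irx3 UMIs in 749 cells at 73.4 CPM (68.0 to 79.1). The smaller cluster led by Eln, Stmn2 and Gja4, a connexin gene of arterial endothelium, had 10 UMIs in 74 cells at 13.4 CPM (6.41 to 24.6).
Stab2, a scavenger receptor gene of sinusoidal endothelium, separated the levels further. The 149 endothelial-like cells with a Stab2 UMI held Irx3 at 102 CPM (88.5 to 116) and the 674 without at 60.1 CPM (54.8 to 65.7). Thinned shares were 39.9% (31.6 to 48.5) and 20.1% (16.99 to 23.6).
Osteoblast and marrow stromal markers in these cells were summed by list. The 8 markers of mature osteoblasts summed to 458 CPM in endothelial-like cells (318 to 469 over its clusters) and to 430 CPM in leukocyte-like cells (298 to 610). The 10 markers of marrow stromal cells summed to 787 CPM (706 to 1789) and 566 CPM (20.6 to 1079) in the same classes. The 9 markers of the osteoblast lineage summed to 5021 CPM in endothelial-like cells (4977 to 5570) and to 913 CPM in leukocyte-like cells (692 to 2152). Of these markers, Col1a1 was at 345 and 326 CPM, Alpl at 11.4 and 12.4, Sp7 at 1.20 and 0.926 and Runx2 at 5.11 and 25.4. The rest of each sum came from the other genes of the list, Col1a2, Sparc, Postn, Mmp13 and Pdgfrb. As a sum these were higher in endothelial-like than in leukocyte-like cells, and their single levels are not given here. The 6 osteocyte markers summed to 9.62 and 5.81 CPM, with Mepe at 0 in endothelial-like cells. The part of osteoblast or stromal RNA in the endothelial Irx3 level was not tested. Without the 60 endothelial-like cells that Scrublet marked, Irx3 was at 72.8 CPM. Over all alternative settings, of which the limit of 5% mitochondrial UMIs left 39 endothelial-like cells, the Irx3 level ran from 14.2 to 75.3 CPM. Its lowest thinned share was 7.69%.

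The proportion of Irx5 in the combined Irx3 and Irx5 UMIs put both orders in 1 value. It was 78.4% (73.7 to 82.5) of 356 UMIs in HC-like cells, 65.2% (60.8 to 69.5) of 486 in pre-HC-like cells, 54.4% (51.6 to 57.2) of 1255 in mature osteoblast-like cells and 51.8% (46.3 to 57.4) of 326 in general chondrocyte-like cells. It was lower in the other classes, at 23.4% (20.3 to 26.6) of 715 in immature osteoblast-like cells, 23.6% (19.4 to 28.2) of 373 in marrow stromal-like cells, 12.4% (10.2 to 14.9) of 784 in endothelial-like cells and 8.11% (1.70 to 21.9) of 37 in pericyte-like cells. The values compare classes and not the genes, since capture of the 2 transcripts can differ. By design the classes also differ in Irx3 dose, as 1 allele is deleted only in HCs and their descendants. Reporter cells, by the limit given below, were 84.0% of HC-like, 34.1% of mature osteoblast-like and 17.5% of immature osteoblast-like cells. They were 3.98% of pre-HC-like and 0.122% of endothelial-like cells. The part of Irx3 dose in these proportions and in the Irx3 levels of the classes was not tested.

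**Figure D3:**
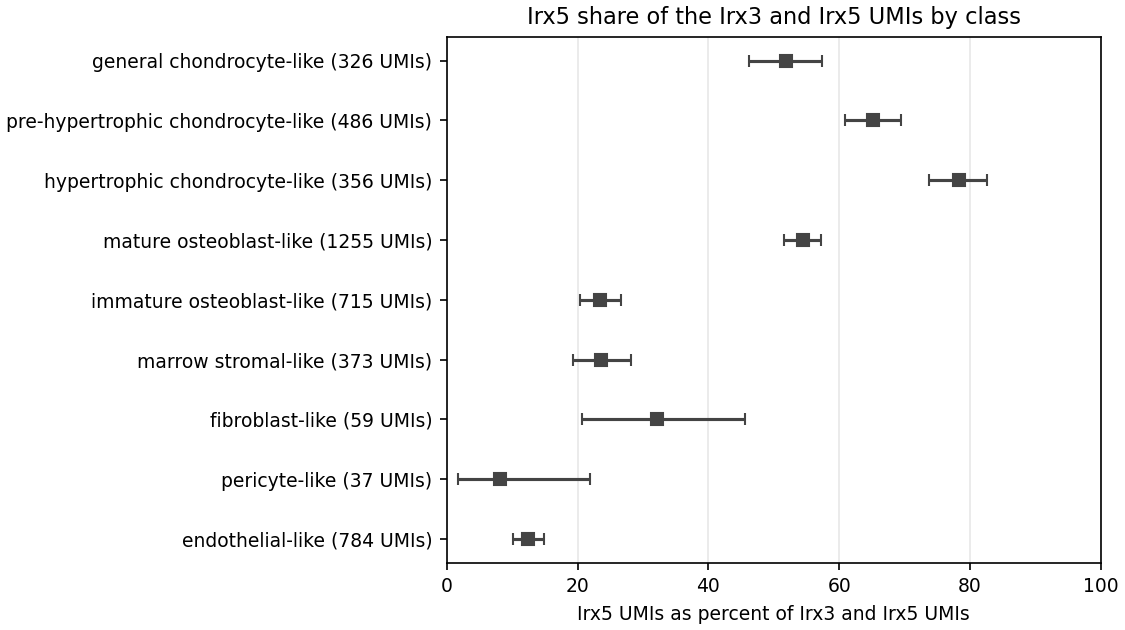
Irx5 UMIs as a percent of Irx3 and Irx5 UMIs in 9 classes, with exact Clopper-Pearson 95% intervals and the number of UMIs beside each class name. The share is 78.4% in HC-like cells and 12.4% in endothelial-like cells.

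Osteoblast-like and marrow stromal-like cells with the HC reporter held more Irx5 and less Irx3 per UMI than other cells of the same class. HC-derived cells were taken as those with more than 14 UMIs of WPRE, a sequence in the reporter transcript. Cells over this limit were 89 of 106 HC-like cells, 146 of 428 mature osteoblast-like, 81 of 464 immature osteoblast-like and 47 of 248 marrow stromal-like cells. In HC-like and pre-HC-like cells the limit marks the reporter and not descent from HCs.
In immature osteoblast-like cells Irx3 was at 67.0 CPM (52.9 to 83.8) in HC-derived and 103.8 CPM (94.6 to 113.6) in non-HC-derived cells, a log2 ratio of -0.62 (-0.97 to -0.28). Irx5 was at 54.9 CPM (42.1 to 70.2) and 22.9 CPM (18.7 to 27.8), a log2 ratio of 1.22 (0.78 to 1.66). Neither pair of intervals overlapped, and Irx5 passed 2-fold where 1.76% of 9748 genes were higher and 3.97% lower by that much.
In mature osteoblast-like cells the differences had the same signs and were smaller. Irx5 UMIs were uneven over the cells of this class, with a variance 2.70 times the mean after thinning. The counting intervals of Irx5 here are therefore too narrow for the spread between cells. Irx3 was at 53.8 CPM (46.1 to 62.4) and 69.8 CPM (63.1 to 77.0), and Irx5 at 89.8 CPM (79.8 to 100.7) and 68.7 CPM (62.1 to 75.9). The log2 ratios were -0.37 (-0.62 to -0.12) and 0.38 (0.17 to 0.60), and neither member passed 2-fold, beside 0.913% of genes higher and 1.65% lower.
In marrow stromal-like cells Irx3 was at 62.5 CPM (43.5 to 86.9) and 116 CPM (102 to 131), and Irx5 at 64.3 CPM (45.0 to 89.0) and 24.1 CPM (18.01 to 31.6). The log2 ratios were -0.88 (-1.38 to -0.38) and 1.38 (0.78 to 1.98), and Irx5 passed 2-fold where 1.14% of 8086 genes were higher and 4.23% lower by that much.
With both osteoblast-like classes pooled, the log2 ratio was -0.56 (-0.76 to -0.36) for Irx3 and 0.73 (0.53 to 0.92) for Irx5, beside a median of -0.03 over all genes, and 0 of 2 members passed 2-fold, beside 0.923% of genes higher and 3.09% lower.
The share of cells with a UMI was compared after thinning. An Irx5 UMI was present in 29.8% (17.3 to 44.9) of HC-derived and 8.25% (4.79 to 13.1) of non-HC-derived marrow stromal-like cells, with intervals that did not overlap. In immature osteoblast-like cells the shares were 16.2% (8.95 to 26.2) and 9.68% (6.87 to 13.2), and in mature osteoblast-like cells 24.7% (17.9 to 32.5) and 24.1% (19.2 to 29.5), with overlapping intervals in both. For Irx3 the intervals of the shares overlapped in all 3 classes, as in immature osteoblast-like cells with 22.5% (13.9 to 33.2) and 36.6% (31.7 to 41.7).

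The proportion of Irx5 in the combined UMIs differed by reporter. It was 45.0% (36.6 to 53.6) in HC-derived and 18.1% (15.0 to 21.5) in non-HC-derived immature osteoblast-like cells. It was 62.5% (58.0 to 66.9) and 49.6% (46.1 to 53.2) in mature osteoblast-like cells, and 50.7% (38.6 to 62.8) and 17.2% (13.1 to 22.0) in marrow stromal-like cells. In HC-like cells, of which 17 were under the reporter limit, it was 77.5% (72.4 to 82.0) and 85.4% (70.8 to 94.4), and those intervals overlapped. Their Irx3 was at 22.2 CPM (17.4 to 28.0) and 16.6 CPM (6.09 to 36.1), and their Irx5 at 76.3 CPM (67.1 to 86.5) and 96.8 CPM (67.4 to 134.6), also with overlapping intervals. Of the pre-HC-like cells, 15 were over the reporter limit and 362 were not. Irx5 was at 55.4 CPM (37.9 to 78.2) and 25.6 CPM (22.7 to 28.7) in them, with intervals that did not overlap. Irx3 there was at 13.9 CPM (5.98 to 27.3) and 14.4 CPM (12.3 to 16.8), and the proportion of Irx5 at 80.0% (64.4 to 91.0) and 63.9% (59.2 to 68.4), with overlapping intervals. Of the fibroblast-like cells 8 were HC-derived and 306 were not, and Irx3 was at 28.6 CPM (7.79 to 73.2) and 10.03 CPM (7.02 to 13.9), the opposite direction to the osteoblast-like classes but with overlapping intervals from 4 and 36 UMIs.

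Cells were then divided by their WPRE UMIs. In immature osteoblast-like cells Irx3 was at 117.5 CPM (105.8 to 130.2) with no WPRE UMI, 74.0 CPM (60.6 to 89.6) with 1 to 14 and 67.0 CPM with more, and Irx5 was at 21.6 CPM (16.7 to 27.4), 25.8 CPM (18.2 to 35.6) and 54.9 CPM. In marrow stromal-like cells Irx3 was at 125.5, 96.0 and 62.5 CPM and Irx5 at 22.6, 27.2 and 64.3 CPM. Mature osteoblast-like cells differed from these in Irx3, which was at 62.8, 74.6 and 53.8 CPM, so that its level without WPRE UMIs overlapped that above 14. Their Irx5 was at 40.3 CPM (32.6 to 49.3) without WPRE UMIs and at 88.7 and 89.8 CPM in the other bins. The proportion of Irx5 rose over the bins in every one of these classes, from 15.5% to 45.0%, from 39.1% to 62.5% and from 15.3% to 50.7%. A WPRE UMI was also present in 364 of 823 endothelial-like and 520 of 2712 leukocyte-like cells, and 1 and 4 of these held more than 14. The part of free reporter RNA in the bin of 1 to 14 was not tested.

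**Figure D4:**
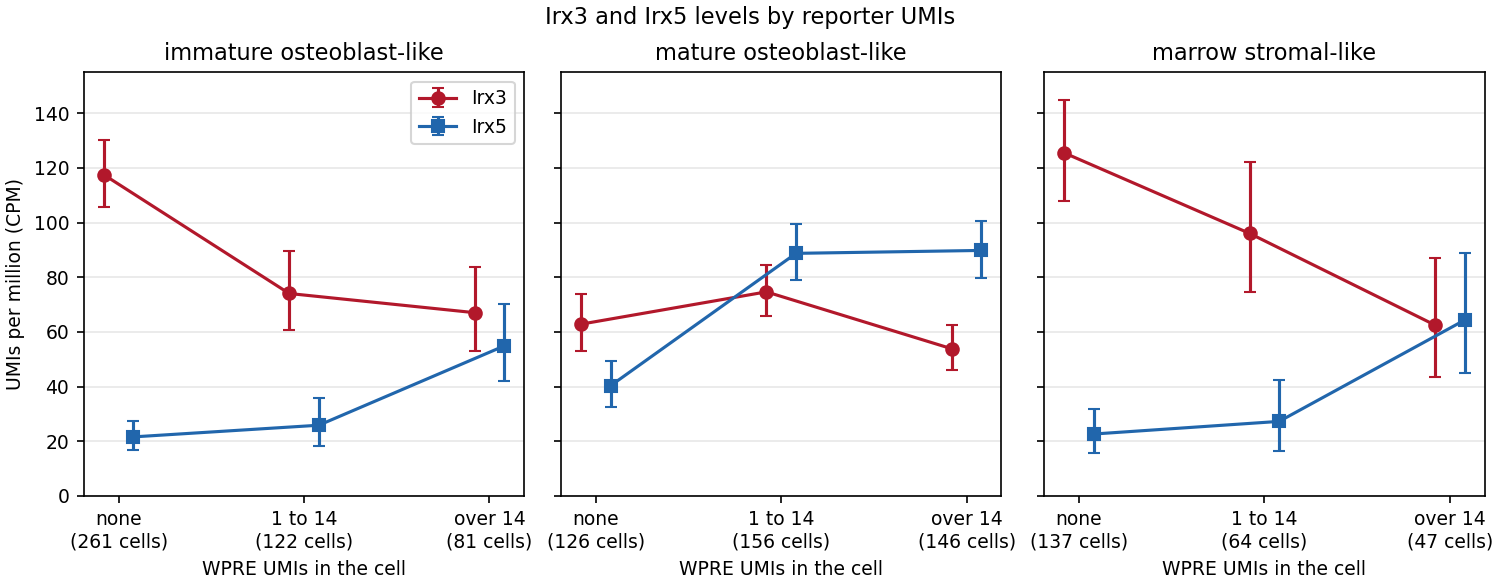
Irx3 (circles) and Irx5 (squares) levels in CPM in cells with no WPRE UMI, 1 to 14 and over 14, within 3 classes; bars are exact Poisson 95% intervals and cell numbers stand under each bin. In immature osteoblast-like cells Irx3 goes from 117.5 to 67.0 CPM while Irx5 goes from 21.6 to 54.9 CPM.

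Levels of other genes moved with the reporter in the same cells, and their part in the Irx differences was not tested. In immature osteoblast-like cells Bglap was at 56.6 CPM in HC-derived and 488 CPM in non-HC-derived cells, Ibsp at 2042 and 909.8 CPM, and Mmp13 at 6736 and 2610 CPM. In mature osteoblast-like cells Bglap was at 2851 and 14400 CPM and Dmp1 at 306.6 and 436.8 CPM. Dmp1 was thus lower in the HC-derived mature cells although Irx5 was higher in them. Col10a1 was at 13.9 and 16.8 CPM in the immature and 13.2 and 14.8 CPM in the mature class. All of these were below its 23.7 CPM in leukocyte-like cells, the background class. Col10a1 in these osteoblast-like cells could therefore not be told from free RNA, and its values do not compare expression by reporter. Runx2 had log2 ratios of 0.11 (-0.08 to 0.31) in the immature and -0.01 (-0.17 to 0.15) in the mature class.

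In most classes, cells with an Irx5 UMI held Irx3 no more often, within counting error, than cells without. After thinning, an Irx3 UMI was present in 27.9% (19.5 to 37.5) of the 104 mature osteoblast-like cells with an Irx5 UMI and in 27.8% (23.0 to 33.0) of the 324 without. In immature osteoblast-like cells the shares were 38.8% (25.2 to 53.8) and 33.5% (28.9 to 38.3), and in HC-like cells 14.3% (4.81 to 30.3) and 15.5% (7.996 to 26.0). In endothelial-like cells they were 44.4% (27.9 to 61.9) of 36 cells and 22.8% (19.7 to 26.1) of 698, with intervals that did not overlap. Pre-HC-like cells had 16.0% (7.17 to 29.1) and 7.06% (4.53 to 10.4), with intervals that did. Irx6 was found beside Irx5 in 2 mature osteoblast-like cells and 1 HC-like cell after thinning, and in no thinned cell without Irx5 in those classes. Of all thinned cells there, 24.3% and 33.0% held Irx5. Irx1 and Irx2 shared 1 cell, a fibroblast-like cell.

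Among transgene sequences in the file, EGFP was highest in HC-like and mature osteoblast-like cells. The tdTomato sequence, at 23.3 and 10.4 CPM, and WPRE, at 1194 and 613.5 CPM, were highest in the same 2 classes. Neither the labels nor the methods say which allele of this mouse carries EGFP. EGFP had 58 UMIs in the cells kept. It was at 4.22 CPM (2.36 to 6.95) in HC-like cells, 2.46 (1.54 to 3.72) in mature osteoblast-like cells, 1.23 (0.50 to 2.54) in immature osteoblast-like cells and 0.682 (0.295 to 1.34) in pre-HC-like cells. Endothelial-like and leukocyte-like cells had 0 EGFP UMIs, which allows up to 0.301 and 0.0841 CPM. Within the 4 classes with most EGFP, 5.83% (4.02 to 8.13) of cells with an Irx5 UMI and 1.57% (0.841 to 2.68) of cells without held EGFP, whereas for Irx3 the shares were 3.70% (2.39 to 5.46) and 2.89% (1.80 to 4.38). Deeper cells hold more of every sequence, and these shares were not thinned. The classes also differed in both genes, with an Irx5 UMI in 85 of 106 HC-like and 139 of 377 pre-HC-like cells and EGFP in 13 and 8 of them, and the part of class mix in the pooled shares was not tested.

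The genes whose levels followed Irx3 most closely over the 29 clusters with at least 50 cells, among 12330 genes, were Pdk4 (Pearson r = 0.94 of log2 CPM), Adam12 (0.92), Cdr2l (0.92), Gja1 (0.91) and Zfp618 (0.91). Pdk4 encodes a mitochondrial kinase that limits pyruvate oxidation, and Gja1 encodes connexin 43 of gap junctions. Pdk4 was at 75.1 CPM in marrow stromal-like and 54.9 CPM in immature osteoblast-like cells but at 15.9 CPM in endothelial-like cells, while Cdr2l was at 92.6 CPM in endothelial-like cells. Those closest to Irx5 were Bmp8a (0.90), a BMP ligand gene with its top of 36.3 CPM in HC-like cells, Slc38a10 (0.89), Unc5b (0.88), a netrin receptor gene, Bambi (0.87), a pseudoreceptor that dampens TGF-β family signals, and Klhl33 (0.87). Irx3 and Irx5 themselves had r = 0.84. The clusters share 1 library, so these values describe it and carry no test.

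Within 500 kb of a member, 10 other annotated genes had at least 10 UMIs. The long noncoding RNA gene Gm36380, 4.3 kb from Irx3, had 56 UMIs, of which 21 were in mature osteoblast-like and 12 in HC-like cells, at 2.35 and 3.37 CPM. Irx3os had 35 UMIs, with 14 of them in immature osteoblast-like cells at 2.46 CPM and 0 in blood cells. Fto, 130.1 kb from Irx3, was present more evenly, at 29.4 to 57.9 CPM over the chondrocyte-like, osteoblast-like, stromal, fibroblast-like, pericyte-like and endothelial-like classes, and its level in leukocyte-like cells was 17.5 CPM. Slc6a2, the noradrenaline transporter gene 279.1 kb from Irx6, had 55 of its 136 UMIs in mature osteoblast-like cells. Mmp2, a gelatinase gene 146.3 kb from Irx6, was highest in fibroblast-like cells at 680.0 CPM, where Irx6 was at 0.

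The other TALE homeobox genes also differed between osteoblast-like and chondrocyte-like cells. Of 11 with at least 30 UMIs, 6 were higher by at least 2-fold in osteoblast-like cells and 0 were lower, with a median log2 ratio of 1.13 beside 0.12 over all genes, of which 14.3% were higher and 9.85% lower by 2-fold. They included Meis3 at 17.98 against 0.78 CPM and Tgif1, a repressor in TGF-β signalling, at 46.1 against 12.9 CPM. From immature to mature osteoblast-like cells, 3 of 9 were lower and 1 was higher, beside 18.1% and 4.83% of all genes. From pre-HC-like to HC-like cells, 3 of 7 were higher, beside 22.7% of all genes, with Tgif1 among them at 4.26 and 64.6 CPM. By reporter, 0 of 9 passed 2-fold in either direction, beside 0.923% of genes higher and 3.09% lower.
Limb patterning genes passed 2-fold between osteoblast-like and chondrocyte-like cells at near the share over all genes. Of 8 list genes, 1 was higher by 2-fold in osteoblast-like cells and 0 were lower, beside the same 14.3% and 9.85% of all genes. Their median log2 ratio was -0.42, beside 0.12 over all genes. Shox2, Pitx1 and Hoxa10 had log2 ratios of -0.41, -0.69 and -0.52, none of them past 2-fold. In fibroblast-like cells, 5 of 8 were higher by 2-fold than in immature osteoblast-like cells, beside 9.58% of all genes, among them Pitx1 (57.1 against 19.9 CPM), where Irx3 and Irx5 were lower. In endothelial-like cells, 7 of 8 were lower by 2-fold than in osteoblast-like cells and 1 was higher, beside 12.3% and 20.6% of all genes.
From immature osteoblast-like to marrow stromal-like cells, 5 of 6 adipogenic genes were higher by at least 2-fold and 3 of 9 osteogenic genes were lower, beside 4.82% of 10678 genes higher and 2.5% lower. Lpl and Adipoq, and the 3 lower genes Alpl, Ibsp and Bglap, also served to name the classes, so their differences are no independent evidence. Of the adipogenic genes outside the naming lists, Pparg was at 6.51 and 45.3 CPM, Cebpa at 16.4 and 89.8 CPM and Fabp4 at 29.4 and 132.2 CPM. Of the growth plate signals, 4 of 7 were higher in pre-HC-like than in general chondrocyte-like cells and 1 was lower, beside the 2.27% and 4.88% of genes given above for that pair. The 4 were Pth1r, Ihh, Col10a1 and Mef2c, which all served to name chondrocyte classes, so their differences are no independent evidence. The lower gene was Gli1, a target of hedgehog signalling outside the naming lists, at 6.05 against 22.4 CPM. Between HC-like and pre-HC-like cells, 3 of 7 were lower, beside 6.06% of genes, with Ptch1 at 30.4 and 106.8 CPM, Gli1 at 0.843 and 6.05 CPM, and Fgfr3, a naming gene, at 93.9 and 438.1 CPM.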

How the data were processed

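Gene UMI counts, deposited by the authors, came from Cell Ranger 3.1.0 and the mm10 genome with tdTomato and WPRE added, per the labels and the study's methods. No source here names the annotation release. A second deposited matrix of UMI counts held the transgene sequences and was joined by barcode. The entries of the library share 1 barcode set and were not separated. The filters were a minimum of 1600 genes and upper limits of 10% mitochondrial and 50% ribosomal UMIs. Clustering used scanpy 1.11.5 (2000 variable genes, 30 components, 20 neighbours, Leiden resolution 1, seed 1). Scrublet called 588 barcodes (4.15%) doublets. These stayed in. Log2 ratios used 1 CPM added, and their 95% intervals follow from the counting errors of both sums. Genes with at least 30 UMIs over a pair of classes entered the 2-fold shares. The steps were tested on simulated counts. The 5 gene lists (46 genes), markers and members were chosen with earlier results of these data known. Named genes were the members, Irx4, the 5 genes most like each member with at least 100 UMIs, neighbours within 500 kb with at least 10 UMIs, and genes of the lists. Splits by Col10a1, Mmp13, Bglap, Dmp1, Adipoq, Stab2 and WPRE bins, and genes beside the reporter, were chosen after values were seen. Limits of the clustering, filters, pseudocount, thinning and reporter cutoff were varied. Values of 1 list gene are not reported here.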

Additional observations from a re-analysis of the deposited data

Results flagged for a closer look

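Barcodes with under 1600 genes were left out of every comparison. Those 5476 barcodes, with a median of 2164 UMIs, held 101 Irx3 UMIs (5.85 CPM, 4.77 to 7.11) and 70 Irx5 UMIs (4.06 CPM, 3.16 to 5.13), both above the limit that a count of 0 allows, 0.174 CPM. Any count over 3 is above that limit. The other barcodes left out, 449 with 1600 genes or more and over 10% mitochondrial UMIs, held 138 Irx3 UMIs (36.7 CPM, 30.9 to 43.4) and 63 Irx5 UMIs (16.8 CPM, 12.9 to 21.4). Which classes these barcodes belong to was not tested.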

How the results depend on the processing

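Each value rests on 1 library. No paired analysis was possible because the replicate entries are 1 library that cannot be separated, and no replicate was left out for the same reason. Counts of 69 UMIs or fewer limit what can be said of Irx1, Irx2, Irx4 and Irx6. The Irx5 log2 ratio of marrow stromal-like over immature osteoblast-like cells changed sign, with alternative values from -0.08 to 0.25. No other main ratio did. Of the main ratios, 90 alternative values stayed within the counting interval and 36 moved, and of the other values 420 stayed and 139 moved. The cause was not tested. All moved main values are log2 ratios. For pre-HC-like over general chondrocyte-like cells, Irx3 was 0.53 and Irx5 0.42 with at least 2000 genes per cell, Irx3 1.39 with at most 5% mitochondrial UMIs, Irx3 1.58 and Irx5 2.10 with at most 20%, Irx3 1.47 and Irx5 1.46 at resolution 0.6, Irx3 1.37 and Irx5 2.37 at resolution 1.5, Irx3 1.70 and Irx5 2.80 with more variable genes, Irx5 0.53 after clustering without Scrublet-marked barcodes, Irx3 1.35 with those left out of the same classes, and Irx3 0.76 and Irx5 1.43 with 5 CPM added. For HC-like over pre-HC-like cells, Irx5 was 2.24 with at least 2000 genes and 0.82 with at most 5% mitochondrial UMIs, Irx3 0.0569 and Irx5 1.02 with at most 20%, Irx3 0.0819 and Irx5 0.83 at resolution 1.5, and Irx5 1.99 after clustering without marked barcodes. For mature over immature osteoblast-like cells, Irx5 was 1.04 with at least 2000 genes. For fibroblast-like over immature osteoblast-like cells, Irx3 was -3.78 and Irx5 -3.29 with at most 20% mitochondrial UMIs, -3.67 and -3.235 at resolution 1.5, and -3.66 and -3.605 without marked barcodes. For osteoblast-like over chondrocyte-like cells, Irx3 was 2.50 and Irx5 1.496 with 5 CPM added, 3.18 and 1.905 as means over cells, and Irx3 3.06 with marked cells left out of the same classes. By reporter, Irx3 was -0.33 with HC-derived cells taken by 1 tdTomato UMI, and Irx5 1.41 against cells with no WPRE UMI. The limit of 5% mitochondrial UMIs left no immature osteoblast-like, marrow stromal-like or pericyte-like class, and 39 endothelial-like cells. Resolution 0.6 left no immature osteoblast-like class, and more variable genes left neither it nor an HC-like class, so these gave no value.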
